A study of Homo sapiens with 2 samples.

Results

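The clustered histone genes are the replication-linked histone genes that lie side by side at a few sites of the human genome, the large HIST1 cluster on chromosome 6, HIST2 and HIST3 on chromosome 1 and the lone HIST4 gene on chromosome 12. They were taken as every gene symbol that begins with HIST1H, HIST2H, HIST3H or HIST4H, which gave 71 of the 36601 genes in the count tables. Of these, 55 belong to HIST1, 12 to HIST2, 3 to HIST3 and 1 to HIST4. By type, 6 encode the linker histone H1, 17 encode H2A, 18 encode H2B, 15 encode H3 and 15 encode H4. The symbols are older ones, and all 71 were matched to a current RefSeq name (HIST2H2AC is H2AC20, HIST1H4C is H4C3, HIST1H1C is H1-2 and HIST1H1E is H1-4). The match took the first RefSeq entry that lists the older symbol as a synonym. For HIST1H2BD, HIST1H2BE, HIST1H2BF, HIST1H2BG and HIST1H2BI it gave the same name, H2BC5. These are separate genes with their own gene IDs and positions, so that name cannot be right for all of them.

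The series holds 1 single-cell RNA library of D21 revertant cells and 1 of D0 parental cells. Both are MDA-MB-231, an established triple-negative breast cancer line of mesenchymal appearance. D21 cells had grown for 21 days in RPMI-1640 without methionine, with 100 µM L-homocysteine and 1.5 µM vitamin B12 in its place, and D0 cells in RPMI-1640 with 100 µM methionine. Both media were given dialyzed fetal bovine serum and penicillin–streptomycin, as the growth notes of both samples say.

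H2A, H2B, H3 and H4 form the core that DNA is wrapped around in a nucleosome, and H1 binds the DNA between nucleosomes. Cells make most of their histones while they copy DNA in S phase, and the clustered genes are switched on for that time. Their messages are unusual in that most end in a short stem-loop, bound by the protein SLBP, in place of a poly(A) tail, although some clustered genes also give spliced or extended transcripts with a tail. The kit used here (10x Genomics Single Cell 3' v3.1) primes on poly(A), so the values below describe the histone RNA that this priming captured. One unique molecular identifier (UMI) stands for 1 captured molecule, so levels were not divided by gene length. A level is given as CPM, the UMIs of a gene per 1000000 UMIs of all genes, over all cells of a library.

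After cell calling the D21 library held 12487 cells with a median of 12022 UMIs, and the D0 library 7492 cells with a median of 18908 UMIs. The cells held 182839048 UMIs at D21 and 183098116 at D0, and 21 cell barcodes occurred in both libraries. VIM, a mesenchymal filament protein, stood at 2876 CPM at D21 and 4157 CPM at D0, and CD44 at 415 and 312 CPM. The keratin genes KRT8 (341 and 392 CPM) and KRT18 (885 and 858 CPM) were also expressed. Of the receptor genes, ESR1 (estrogen receptor) stood at 0.377 and 0.197 CPM, PGR at 0.0547 and 0.0218 CPM, and ERBB2 at 10.2 and 11.8 CPM. Of the 8 markers of other cell types looked at, PTPRC, CD3E, LYZ, CDH5 and COL1A1 lay between 0 and 1.05 CPM, and EPCAM, PECAM1 and ACTA2 between 3.94 and 10.1 CPM. There was 1 library per condition, so no test between conditions was possible. The 95% intervals in brackets are exact for counts, cover counting error only and say nothing of the variation between cultures.

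Clustered histone RNA as a whole was lower at D21, while the sum of all members but HIST1H4C was higher. All 71 genes together made 1534 CPM at D21 and 1832 CPM at D0, a ratio of 0.838 (0.833 to 0.842). HIST1H4C, which encodes the core histone H4, supplied 48.4% of the clustered histone UMIs at D21 and 67.4% at D0. The other 70 genes together stood at 792 CPM at D21 and 596 CPM at D0, a ratio of 1.33 (1.32 to 1.34), so that the direction of the sum turned round without HIST1H4C. The sum also differed with the depth of the cells compared. D21 cells were shallower, so the cells of both libraries with at least 9009 UMIs were put into 4 groups with the same UMI limits (median 10596, 14165, 19600 and 29986 UMIs at D21, and 10854, 14418, 19645 and 35107 at D0), an alternative chosen after seeing the data. From the lowest to the highest group the D21 to D0 ratio of the sum was 2.03, 1.52, 0.910 and 0.736. HIST1H4C was above 1 in the lower groups and below 1 in the upper ones (1.54, 1.13, 0.705 and 0.589), so that it was higher at D21 among the cells of 9009 to 16583 UMIs. The sum of the other members was above 1 in each group (2.70, 2.16, 1.27 and 1.08). The S-phase genes described below also had ratios of 1.80, 1.29, 1.02 and 1.03 in these groups. The part of depth and of the cell cycle in these ratios was not tested.

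Most of the 71 genes gave little captured RNA. In all, 22 reached 5 CPM in at least 1 library and are called measured below, 23 were detected below that level, and 26 had at most 3 UMIs in both libraries together, 17 of them none in any cell. The 5 highest members made up 82.8% of all clustered histone UMIs at D21 and 86.5% at D0. The median log2 ratio of the 22 was 0.30, against -0.01 over all 11001 genes of at least 5 CPM. Of the 22, 15 had a ratio above 1 and 7 below 1, where 5212 of all 11001 genes lay above 1 and 5789 below. The interval lay wholly above 1 for 14 members and wholly below 1 for 6. The share of all genes with such intervals is not given here, so these 2 counts cannot be read as particular to the histone genes. A ratio of at least 1.5 was reached by 6 of the 22 members, against 1.79 percent of all genes tested. A ratio of at most 1/1.5 was found for 2 of the 22, against 4.37 percent of all genes. The 6 higher members were HIST2H2AC, HIST1H1E, HIST1H2AC, HIST2H2BF, HIST1H2AH and HIST1H4H, and the 2 lower ones HIST1H4C and HIST1H2BA. HIST1H2BA reached 5 CPM at D0 alone, and HIST1H3H and HIST2H2AA4 at D21 alone. For these genes the side of 1 follows from how they came to be measured. These counts moved with the settings: 3 members were higher when the UMI minimum for a cell was doubled and 11 when members down to 1 CPM were counted. The shares of all genes at those settings are not given here.

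**Figure D1:**
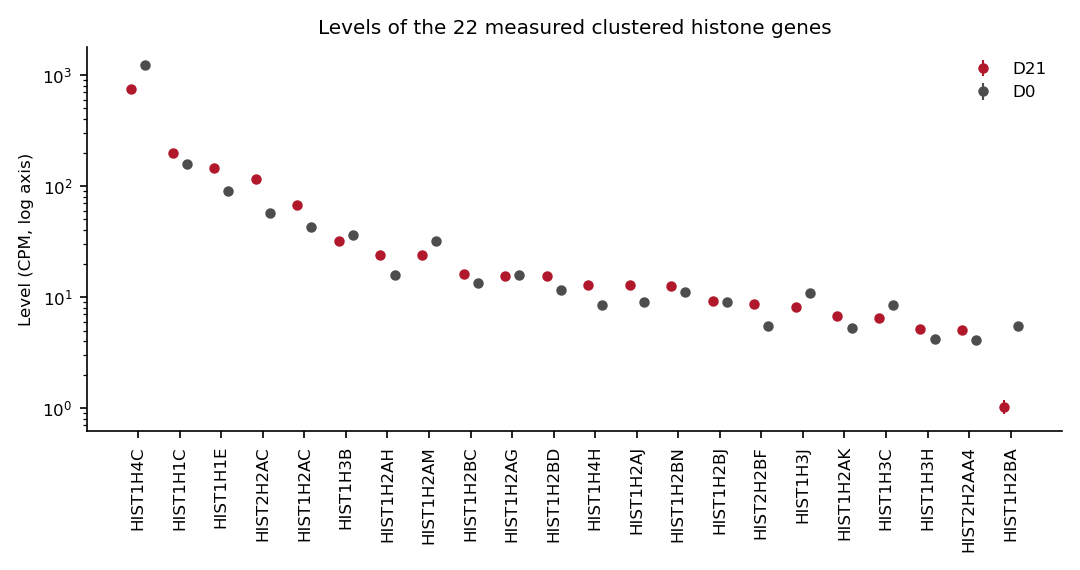
Level of each of the 22 measured clustered histone genes in CPM (log axis) in the D21 library (red, left of each pair) and the D0 library (grey, right), in order of the D21 level, with bars for the 95% counting interval. HIST1H4C lies above all others in both libraries at 742 CPM (D21) and 1236 CPM (D0), and the next, HIST1H1C, at 199 and 158 CPM.

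HIST2H2AC, an H2A gene of the HIST2 cluster, had the highest ratio of the measured members. It had 21241 UMIs or 116 CPM in D21 cells, against 10566 UMIs or 57.7 CPM in D0 cells, a ratio of 2.01 (1.97 to 2.06). It was the sole measured member past 2-fold in the direction of D21. In the 4 groups of cells with the same UMI limits its ratio was 4.73, 2.89, 1.61 and 1.65 from the lowest to the highest. The gene has 1 exon, on chromosome 1 from 149886975 to 149887364 (plus strand, GENCODE v29 on GRCh38), and that model holds the coding part alone. It shares its upstream DNA with HIST2H2BE, an H2B gene read the other way. HIST2H2BE itself stood at 2.52 CPM at D21 and 2.04 CPM at D0, a ratio of 1.23 (1.07 to 1.42). Both partners were thus higher at D21, and their intervals did not meet.

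The stretch between the starts of this pair is shown because it lies upstream of the gene with the highest ratio. It is chr1:149886683-149886917 of GRCh38.p14 from the RefSeq promoter table, written on the plus strand, and HIST2H2AC begins after its last base. Capitals mark the 3 short motifs searched on either strand, CCAAT (bound by NF-Y), the TATA-box letters TATAAA, and the octamer ATGCAAAT (bound by OCT1, the product of POU2F1).
HIST2H2AC and HIST2H2BE: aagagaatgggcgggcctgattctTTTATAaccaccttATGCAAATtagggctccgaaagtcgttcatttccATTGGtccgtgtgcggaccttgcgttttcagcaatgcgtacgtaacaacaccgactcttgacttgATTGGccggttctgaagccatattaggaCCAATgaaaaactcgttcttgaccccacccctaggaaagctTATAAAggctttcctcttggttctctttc
The stretch holds 3 matches to CCAAT, 2 to TATAAA, 1 near each end, and 1 octamer, and no match overlaps another. Among the 62 members matched to a promoter in the table (250 bases before the start and 50 after), CCAAT occurred in 52, TATAAA in 42 and the octamer in 22. Promoters were looked up by current name, so that of H2BC5 was counted once, under HIST1H2BI, the last member given that name. Which of the members with that name it belongs to was not settled. HIST1H2BD, HIST1H2BE, HIST1H2BF and HIST1H2BG, matched to the same name, were thus not among the 62. Over all 35116 promoters of that length, the shares were 34.61%, 11.53% and 1.77%. Of the 18 measured members matched to a promoter, the 9 with the octamer had a median D21 to D0 ratio of 1.19 and the 9 without it 1.23. HIST1H2BD, which was measured, is left out of this split by the shared name, although the H2BC5 promoter may be its own. A match is a run of letters and not a shown binding site.

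The other measured HIST2 genes were HIST2H2BF and HIST2H2AA4, and both had lower ratios than HIST2H2AC. HIST2H2BF, an H2B gene with several spliced models, had 8.65 CPM at D21 and 5.52 CPM at D0, a ratio of 1.57 (1.45 to 1.70). HIST2H2AA4, an H2A gene, had 5.06 CPM at D21 and 4.10 CPM at D0 (1.23, 1.12 to 1.36). HIST2H2AA3 had 2 UMIs at D21 and none at D0 beside the 925 and 751 of HIST2H2AA4, its near-identical copy, so the reads of such copies (HIST2H3A and HIST2H3C, HIST2H4A and HIST2H4B as well) may have been given to 1 copy or lost, and their values are uncertain. HIST2H3PS2, an H3 gene below 5 CPM that is named after its values were seen, had 2.78 CPM at D21 and 1.49 CPM at D0 (1.86, 1.61 to 2.17). The 12 HIST2 genes together made 140 CPM at D21 and 75.4 CPM at D0, a ratio of 1.86 (1.82 to 1.90), and 1.37 (1.31 to 1.43) without HIST2H2AC.

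The H1 genes, which encode the linker histones, were higher at D21 over all cells as far as they were measured. HIST1H1C had 36347 UMIs or 199 CPM at D21, against 28937 UMIs or 158 CPM at D0, a ratio of 1.26 (1.24 to 1.28). In the 4 groups of cells with the same UMI limits its ratio was 2.72, 2.21, 1.23 and 1.02 from the lowest to the highest. The interval of the last (0.999 to 1.05) reached 1. HIST1H1E had 26397 UMIs or 144 CPM at D21, against 16456 UMIs or 89.9 CPM at D0, a ratio of 1.61 (1.58 to 1.64). Its ratio in the same groups was 3.83, 2.87, 1.57 and 1.25. The other 4 H1 genes were all but silent in this readout. HIST1H1A had 1 UMI in each library and HIST1H1T, the testis H1, had 1 at D21 and 8 at D0. HIST1H1D and HIST1H1B had no UMI in any cell, which allows up to 0.0164 CPM in each library (3 counts of the total).

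Of the H2A genes outside HIST2, HIST1H2AC was the highest. It had 67.8 CPM at D21 and 42.6 CPM at D0, a ratio of 1.59 (1.55 to 1.64). In the 4 groups of cells with the same UMI limits its ratio was 1.66, 1.94, 1.80 and 1.51 from the lowest to the highest. HIST1H2AH had 24.1 CPM at D21 and 15.9 CPM at D0 (1.52, 1.45 to 1.59). HIST1H2AJ (1.42) and HIST1H2AK (1.28) also had intervals above 1. HIST1H2AG, at 15.6 CPM in D21 and 15.7 CPM in D0 cells, had a ratio of 0.995 (0.945 to 1.05). HIST1H2AM went the other way over all cells, with 24.1 CPM at D21 and 31.9 CPM at D0 (0.756, 0.727 to 0.786). Its direction turned with depth. From the lowest to the highest of those groups it had 27.6, 29.3, 24.8 and 18.1 CPM at D21, and 12.6, 24.2, 39.8 and 33.0 CPM at D0. The H2A genes together had a ratio of 1.46 (1.44 to 1.48), and 1.23 (1.21 to 1.25) without HIST2H2AC.

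The H2B genes were low, at 81.7 CPM in all at D21 and 69.4 CPM at D0, a ratio of 1.18 (1.15 to 1.21). HIST1H2BC had 16.0 CPM at D21 and 13.5 CPM at D0 (1.19), HIST1H2BD 15.5 and 11.5 CPM (1.35), HIST1H2BN 12.5 and 11.0 CPM (1.13) and HIST1H2BJ 9.17 and 8.95 CPM (1.02, 0.956 to 1.10). HIST1H2BA had the lowest ratio of all measured members, and it counts as measured through its D0 level alone. This gene encodes an H2B known from testis, and it had 189 UMIs or 1.03 CPM at D21, against 997 UMIs or 5.45 CPM at D0, a ratio of 0.190 (0.162 to 0.222). Its neighbour HIST1H2AA, an H2A gene also known from testis that begins 249 bases away on the opposite strand, was lower at D21 as well, with 130 UMIs or 0.711 CPM, against 371 UMIs or 2.03 CPM at D0 (0.351, 0.285 to 0.430). HIST1H2AA did not reach 5 CPM, and it is named after its values were seen.

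The H3 genes were lower at D21 over all cells in 3 of 4 measured cases. HIST1H3B had 32.3 CPM at D21 and 36.6 CPM at D0 (0.882, 0.852 to 0.914), but with every cell thinned to 5400 UMIs its ratio was 0.996 (0.931 to 1.07). It also turned with depth. From the lowest to the highest of the 4 groups with the same UMI limits it had 34.3, 38.6, 33.9 and 26.3 CPM at D21. At D0 it had 9.31, 23.4, 42.9 and 40.7 CPM in these groups. HIST1H3J had 8.12 CPM at D21 and 11.0 CPM at D0 (0.738, 0.690 to 0.790), and HIST1H3C 6.54 and 8.58 CPM (0.762, 0.707 to 0.822). HIST1H3H, at 5.20 CPM in D21 and 4.23 CPM in D0 cells, had a ratio of 1.23 (1.12 to 1.35). HIST1H3J shares bases with HIST1H2AM on the same strand in the annotation, and HIST1H2BN spans HIST1H2AL on the same strand. Reads of these neighbours may therefore not be fully told apart. HIST1H2BN also spans HIST1H2AK, which lies on the opposite strand.

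HIST1H4C, the highest member, had 135751 UMIs or 742 CPM in D21 cells, against 226223 UMIs or 1236 CPM in D0 cells, a ratio of 0.601 (0.597 to 0.605), with the turn by depth given above. It has 1 exon on chromosome 6 from 26103876 to 26104310 (plus strand), with 51 bases after its stop codon in the annotation. The other measured H4 gene, HIST1H4H, which has several spliced models, was higher at D21, with 12.8 CPM against 8.48 CPM at D0 (1.51, 1.42 to 1.61). The 14 H4 genes other than HIST1H4C together had 26.2 CPM at D21 and 21.3 CPM at D0, a ratio of 1.23 (1.18 to 1.28). The lone HIST4H4 had 3.01 CPM at D21 and 1.94 CPM at D0 (1.55, 1.35 to 1.77).

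**Figure D2:**
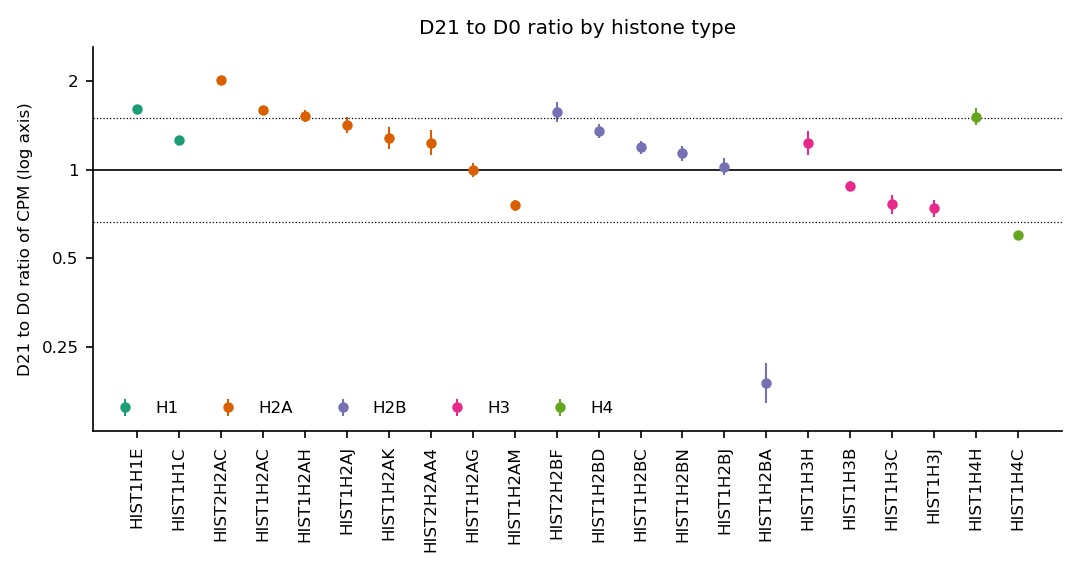
D21 to D0 ratio of CPM (log axis) for the 22 measured clustered histone genes, coloured and grouped by histone type, with bars for the 95% counting interval, a solid line at 1 and dotted lines at 1.5 and 1/1.5. HIST2H2AC at 2.01 and HIST1H2BA at 0.190 are the ends of the range, and HIST1H4C at 0.601 lies apart from HIST1H4H at 1.51.

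Neighbours that share upstream DNA lay on the same side of 1 in some pairs and not in others. There were 11 pairs of members read away from each other with starts within 1000 bases, always an H2A and an H2B gene. In 8 pairs each partner had at least 50 UMIs in each library, and in 5 of these the partners lay on the same side of 1. HIST1H2BC and HIST1H2AC (1.19 and 1.59), and HIST1H2BK and HIST1H2AH (1.62 and 1.52), were among them. HIST1H2AM and HIST1H2BO lay on opposite sides (0.756 and 1.93). So did HIST1H2BJ and HIST1H2AG, whose intervals both hold 1 (0.956 to 1.10 and 0.945 to 1.05). HIST1H2AJ and HIST1H2BM (1.42 and 0.889) did too, and that of HIST1H2BM holds 1 (0.636 to 1.24). Among the pairs on the same side, the interval of HIST1H2BL holds 1 (0.937 to 1.45). The share of other gene pairs on the same side is not given here, so the count cannot be read as particular to these pairs.

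The silent members were not scattered along the chromosome. In the HIST1 cluster 15 neighbours in a row, HIST1H4D to HIST1H2BI (chr6:26188765-26273356, 84592 bases), had 2 UMIs in all over the cells at D21 and 2 at D0, and in each library 13 of the 15 had none. The count tables list no gene of another kind within that span. The genes on its flanks were plainly detected, HIST1H2BE with 556 UMIs at D21 and 347 at D0, and HIST1H4H with 2345 and 1553. A second run of 4, HIST1H2AL, HIST1H1B, HIST1H3I and HIST1H4L (chr6:27865355-27873510), had no UMI in any cell of either library, and the next gene along, HIST1H3J, had 1485 at D21 and 2014 at D0. HIST1H2AL lies within the annotated span of HIST1H2BN on the same strand, so its reads may have been counted for HIST1H2BN or lost. The 3 HIST3 genes had 2 UMIs at D21 and none at D0. Over all genes of the tables, 27.7% had at most 3 UMIs, and this includes the many genes that this line does not express. The number of DNA copies at these stretches was not measured, and the cause of the empty stretches was not tested.

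**Figure D3:**
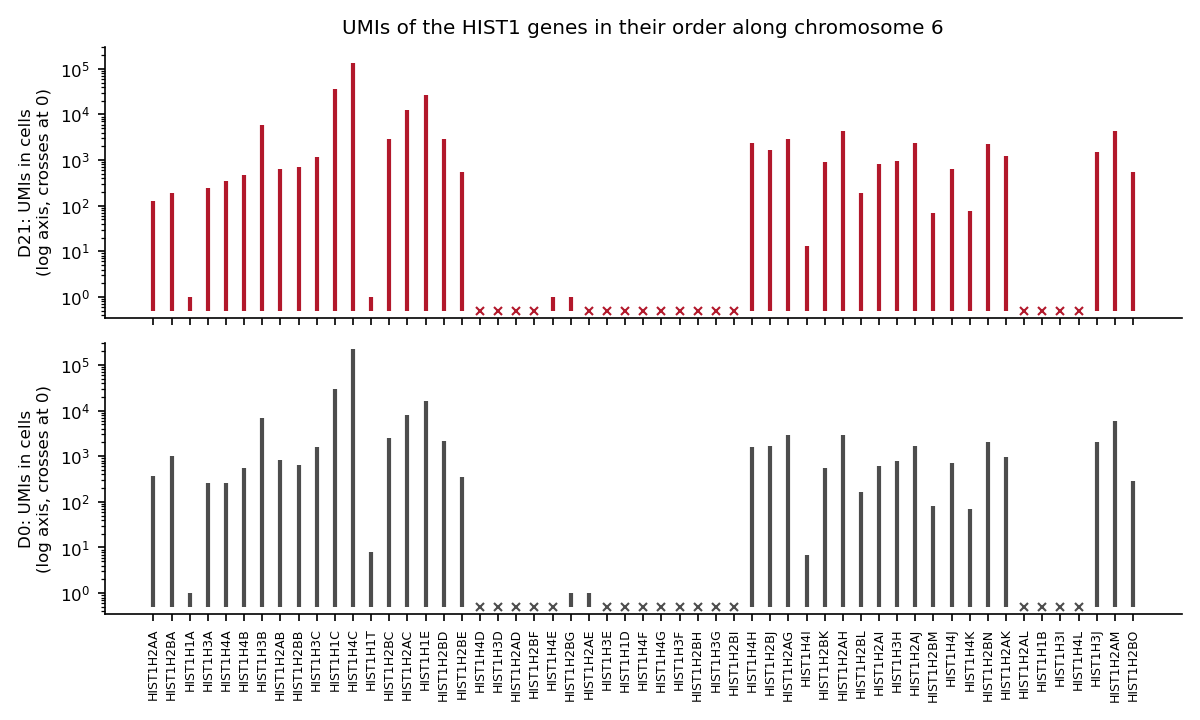
UMIs in cells (log axis) for each of the 55 HIST1 genes in their order along chromosome 6, D21 above and D0 below, with a cross for a gene at 0. The 15 genes from HIST1H4D to HIST1H2BI and the 4 from HIST1H2AL to HIST1H4L are at or next to 0 in both libraries, between neighbours such as HIST1H4H with 2345 (D21) and 1553 (D0) UMIs.

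Between cells of 1 library, clustered histone RNA went with the genes of DNA replication. For each library, cells were thinned to 5400 UMIs and put into 4 equal groups by the UMIs of 42 S-phase genes, none of them a histone. From the lowest to the highest of these groups, the sum of the clustered histones was 541, 1243, 2009 and 2102 CPM at D21, and 574, 1262, 2243 and 2806 CPM at D0. The highest group thus stood 3.89-fold (3.83 to 3.95) over the lowest at D21 and 4.89-fold (4.82 to 4.96) at D0. At D21 the highest group and the one below it lay close together. Per cell, over 12487 cells at D21 and 7492 at D0, the thinned histone UMIs had a Pearson correlation of 0.35 and 0.37 with those of the S-phase genes and of 0.44 and 0.34 with those of 54 G2/M genes. From the lowest to the highest S-phase group, the median thinned G2/M UMIs were 8, 36, 44 and 38 at D21, and 9, 35, 41 and 33 at D0. The lowest group was thus low in both lists, and the part of S phase alone in the gradient was not tested. These values come from cells of 1 library each that share their medium and handling, and from counts thinned to the same total.

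**Figure D4:**
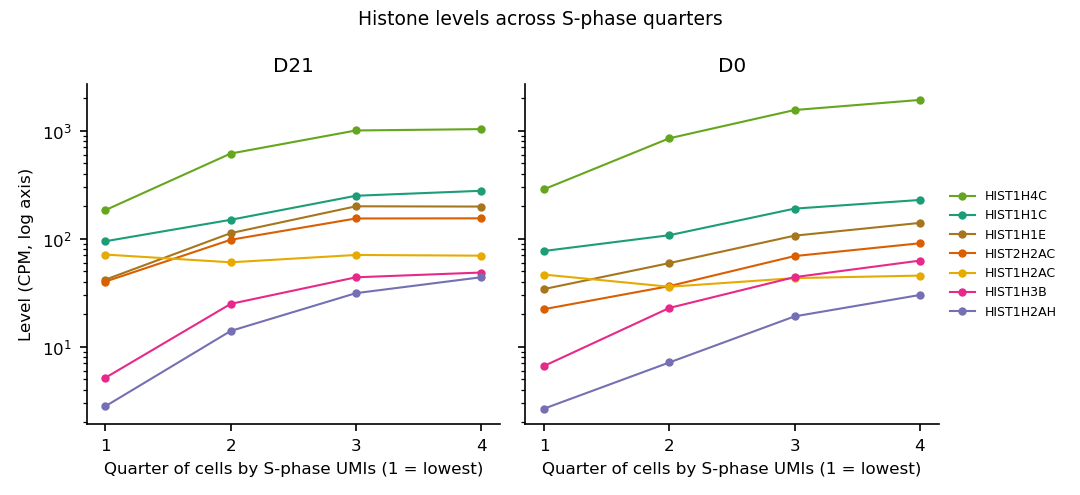
Level in CPM (log axis) of 7 clustered histone genes in 4 equal groups of cells ordered by the UMIs of S-phase genes (1 lowest), D21 left and D0 right. HIST1H2AH, HIST1H3B and HIST1H4C climb steeply in both libraries, and HIST1H2AC is flat, at 71.3 and 69.6 CPM in the end groups at D21 and 46.5 and 45.5 CPM at D0.

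The gradient differed widely from gene to gene, and for most genes the values of both libraries lay close together. HIST1H2AH was the steepest at D21, with 43.9 CPM in the highest S-phase group and 2.81 CPM in the lowest (15.6-fold), and at D0 it had 30.1 and 2.67 CPM (11.3-fold). HIST1H3B followed (9.41-fold at D21 and 9.44-fold at D0), then HIST1H2AM (9.25-fold and 8.25-fold). HIST1H4C was 5.62-fold (5.47 to 5.76) at D21 and 6.71-fold (6.57 to 6.85) at D0, and HIST2H2AC 3.85-fold (3.63 to 4.07) at D21 and 4.07-fold (3.77 to 4.40) at D0. HIST1H2BA reached 13.1-fold at D0 (9.15 to 19.5) and, on few UMIs, 5.90-fold (2.93 to 13.5) at D21. At the other end stood HIST1H2AC (0.977 at D21 and 0.978 at D0), HIST1H2BN (1.48 and 1.47) and HIST1H2BD, which ran against S phase (0.696 and 0.650). Of the members with at least 5 CPM in the library itself, 18 of 21 at D21 and 17 of 20 at D0 had a gradient of at least 1.5-fold, where 14.4% and 13.5% of all genes did. The median gradient of the members was 3.61 at D21 and 4.08 at D0, and that of all genes 1.05 and 1.03.

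Members whose annotated transcripts run on past the stop codon had shallower gradients, with HIST1H2AG as an exception. Of the 22 measured members, 10 have a GENCODE v29 model with at least 100 bases after the stop codon. Their median gradient was 2.19 at D21 and 1.71 at D0, against 5.76 and 5.90 for the other 12, and the ranges overlapped (0.696 to 6.91 and 2.93 to 15.6 at D21). Members with a spliced model had much the same split, with a median gradient of 1.92 at D21 and 1.64 at D0 in the 8 measured ones and 5.76 and 5.75 in the 14 others. The median D21 to D0 ratio was 1.23 for the 10 members with the longer models and 1.07 for the other 12. By splicing, the median log2 ratio was 0.34 for the spliced members, 7 of 8 of them above 1, and 0.30 for the others, 8 of 14 above 1.

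A stem-loop can be followed by a long annotated stretch in a steep gene as well as in a flat one. Shown for 3 members are the stem-loop of 16 bases in capitals and 5 bases on either side, read along the transcript from GENCODE v29 on GRCh38.
HIST1H2AG: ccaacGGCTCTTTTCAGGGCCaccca
HIST1H4H: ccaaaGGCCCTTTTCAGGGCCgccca
HIST1H2AC: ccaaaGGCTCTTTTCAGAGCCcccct
They lie at chr6:27133510-27133535 (plus strand), chr6:26285126-26285151 (minus strand) and chr6:26124664-26124689 (plus strand), with up to 1761, 1655 and 1128 annotated bases after the stem-loop. HIST1H2AG was nonetheless steep (6.91-fold at D21 and 5.99-fold at D0), HIST1H4H shallow (1.72-fold and 1.60-fold) and HIST1H2AC flat. The consensus of the histone stem-loop was found in a model of 32 of the 71 members, 9 of them measured. Of the 39 without a match, 35 have models that end at the stop codon and so cannot show one.

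**Figure D5:**
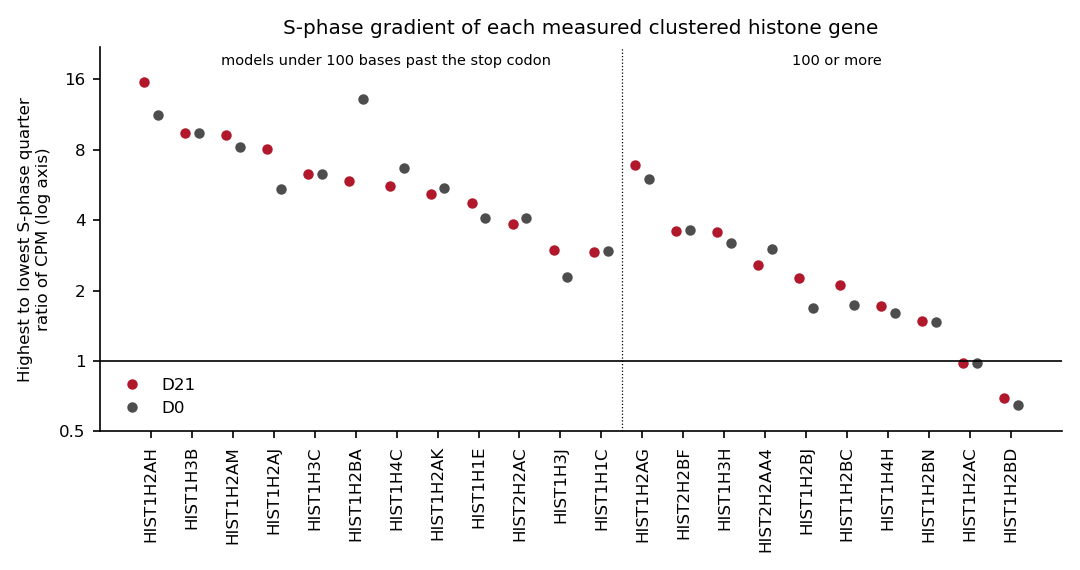
Ratio of CPM in the highest to that in the lowest S-phase group of cells (log axis) for each measured member, D21 in red left of D0 in grey, with members whose models have under 100 bases after the stop codon on the left of the dotted line and the others on the right. Medians left of the line are 5.76 (D21) and 5.90 (D0), and right of it 2.19 and 1.71.

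For a steep H3 gene and a flat H2A gene the upstream DNA is shown side by side, with the same motifs in capitals and the last base next to the gene's start. HIST1H3B stands for the steep genes because HIST1H2AH had no entry in the RefSeq table. The stretches are chr6:26032100-26032349 (minus strand) and chr6:26123922-26124171 (plus strand) of GRCh38.p14.
HIST1H3B: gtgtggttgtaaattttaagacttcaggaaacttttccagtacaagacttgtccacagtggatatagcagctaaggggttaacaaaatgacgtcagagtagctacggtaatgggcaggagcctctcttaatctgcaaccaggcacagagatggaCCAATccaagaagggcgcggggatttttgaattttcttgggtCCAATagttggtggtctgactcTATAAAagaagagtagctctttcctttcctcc
HIST1H2AC: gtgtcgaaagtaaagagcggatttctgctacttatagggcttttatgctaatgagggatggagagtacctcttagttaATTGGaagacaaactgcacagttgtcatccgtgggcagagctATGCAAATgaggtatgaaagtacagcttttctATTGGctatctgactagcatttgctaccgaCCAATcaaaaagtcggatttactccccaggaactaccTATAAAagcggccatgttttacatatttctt
Both hold CCAAT (2 matches in HIST1H3B and 3 in HIST1H2AC) and 1 match to TATAAA near the start, and the octamer occurs once in HIST1H2AC, the gene without a gradient, and not in HIST1H3B.

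The D21 to D0 ratios were also taken at matched levels of the S-phase genes. With the same limits on S-phase UMIs in both libraries, the 4 groups held 20.7%, 22.9%, 29.4% and 26.9% of D21 cells and 24.6%, 27.6%, 24.3% and 23.5% of D0 cells. Within these groups the D21 to D0 ratio was 0.551, 0.581, 0.595 and 0.536 for HIST1H4C, and 1.65, 2.15, 2.07 and 1.70 for HIST2H2AC. For the sum without HIST1H4C it was 1.20, 1.29, 1.34 and 1.20. HIST1H4C was below 1, and the others above 1, in each of the 4 groups. These groups did not match depth. Their median UMIs per cell were 9196, 12244, 13935 and 12556 at D21, and 14922, 18650, 23460 and 20523 at D0. In the groups with the same UMI limits given above, HIST1H4C was not below 1 throughout. Matching on S-phase genes and depth together was not tested.

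Cells rich in both S-phase and G2/M genes had the most histone RNA. These cells, with at least 20 thinned UMIs of the S-phase and 53 of the G2/M genes, were 6.41% of D21 cells (5.98 to 6.85) and 4.69% of D0 cells (4.22 to 5.19, both Clopper-Pearson), with a median of 13662 and 22724 UMIs. Within 1 UMI of the S-phase limit lay 907 cells at D21 and 435 at D0, and of the G2/M limit 392 and 159, so the groups are ranges and not separate kinds of cell. Their clustered histones stood at 3169 CPM at D21 and 4783 CPM at D0. Cells high in S-phase genes alone had 1735 and 2244 CPM, those high in G2/M genes alone 1962 and 2283 CPM, and the rest 1061 and 1144 CPM. For 20 of the 22 measured members in each library the level was highest in the cells high in both, the exceptions being HIST1H2BA and HIST1H2BN at D21, and HIST1H2BD and HIST1H2BN at D0. The margin could be small, as for HIST1H2BD at D21 (17.1 CPM, against 16.5 CPM in the cells high in G2/M genes alone). The share of all genes that were highest in the cells high in both is not given here. HIST2H2AC had 259 CPM in these cells at D21 and 185 CPM at D0, a ratio of 1.40, against a ratio of 2.48 in the cells high in neither (77.1 and 31.1 CPM). The HIST1H4C ratio was 0.461 in the cells high in both and 0.665 in those high in neither. Whether doublets of an S-phase and a G2/M cell contribute to this group was not tested.

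Among the histone genes outside the clusters and the genes that handle histones and their messages, none of those measured passed 1.5-fold. Over all genes only 1.79 percent were higher and 4.37 percent lower by that much. In lists this short, none is near those shares and sets these genes apart from no others. Of the 12 genes on the list of histone variants, which lie outside the clusters and most of which are not tied to S phase, 10 were measured and none passed 1.5-fold in either direction. The highest was H2AFZ (H2A.Z), at 1314 CPM at D21 and 1156 CPM at D0 (1.14), H2AFJ had a ratio of 1.03, and the lowest were H2AFY (macroH2A, 0.819) and H1FX (0.823). Together the 12 made 3604 CPM at D21 and 3612 CPM at D0, more than the whole set of clustered genes in this readout. Of 18 genes for the making of histone messages, 17 were measured and none passed 1.5-fold, with a median log2 ratio of -0.00. SLBP, which binds the stem-loop, had 113 CPM at D21 and 111 CPM at D0 (1.02), NPAT, the activator of clustered histone genes, 38.8 and 31.3 CPM (1.24), and CPSF3, the nuclease that cuts the messages, 30.8 and 26.3 CPM (1.17). The lowest were MIF4GD (0.750) and CSTF2 (0.791). Of 18 histone chaperones and importers all were measured and none passed 1.5-fold. NAP1L1 was the highest (886 CPM at D21 and 646 CPM at D0, 1.37), followed by DNAJC9 (1.20), and HJURP (0.811) and ASF1B (0.821) were the lowest. The 8 clustered genes listed as sources of polyadenylated transcripts, 5 of them measured, made 315 CPM at D21 and 240 CPM at D0 (1.31, 1.30 to 1.33), with HIST1H1C the highest, HIST1H2AC (1.59) and HIST1H2BD (1.35) at the top and HIST1H2BC (1.19) and HIST1H2BJ (1.02) at the bottom of their measured ratios.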

How the data were processed

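The deposited matrices hold raw UMI counts per gene and barcode, which the authors produced with Cell Ranger 4 against GRCh38, as the file headers and the submitters' processing notes say, with empty droplets included. Neither the annotation nor the alignment settings were stated. Cells were barcodes with at least 10% of the 99th percentile of UMIs of the top 5000 barcodes (5422 UMIs at D21 and 9009 at D0), at least 500 genes and at most 20% mitochondrial UMIs. This called 12525 and 7503 barcodes and removed 38 and 11. No doublet caller was run. Leaving out the 5% of cells with the most UMIs was an alternative.

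Counts were summed over cells. Ratios have exact conditional Poisson intervals at 95%. The annotation was GENCODE v29, in which 69 members were matched by gene ID and 2 by symbol. The promoters were from RefSeq. The genes described in full were HIST2H2AC, the 6 highest members, the 3 highest and 3 lowest ratios and the 3 steepest and 3 flattest S-phase gradients. Of each other list, the highest member and the 2 highest and 2 lowest ratios were named. Members, lists and rules were chosen with earlier results of these data known. Intervals, thinning and gradients were tested on simulated data. Python 3.11.15, numpy 2.4.6, scipy 1.17.1, pandas 2.3.3 and matplotlib 3.10.9 were used. Other settings of cell calling, scaling, thinning, level, fold and S-phase list were tried.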

Additional observations from a re-analysis of the deposited data

Results flagged for a closer look

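Barcodes outside the called cells were not part of the comparisons, and they held UMIs of genes that no cell had. HIST1H1D and HIST1H1B, at 0 in the cells of both libraries, had 8 UMIs together in these barcodes at D21 (7 of HIST1H1D and 1 of HIST1H1B) and 9 at D0 (4 and 5). Over the 16618277 and 16543101 UMIs outside cells this was 0.481 CPM (0.208 to 0.949) at D21 and 0.544 CPM (0.249 to 1.03) at D0, above the 0.0164 CPM that a count of 0 allows in the cells.

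Clustered histone RNA was also present in barcodes of up to 100 UMIs, at 1520 CPM at D21 and 1846 CPM at D0, near the 1534 and 1832 CPM of the cells. In barcodes above 100 UMIs and below the cell minimum it was 1098 CPM at D21 and 1440 CPM at D0. In both classes and in the cells the D21 level was below the D0 level. These values stood out because they lie above the limit of a count of 0 in barcodes that the comparisons leave out.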

How the results depend on the processing

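The D21 to D0 ratio of the summed clustered histones (0.838) stayed below 1 except without HIST1H4C, where it was 1.33, and as a mean over 4 groups with the same UMI limits, chosen after seeing the data, where it was 1.30. It was 0.783 with 20% in place of 10% in the cell calling, 0.845 with at most 10% mitochondrial UMIs, 0.865 without the 5% of cells with the most UMIs, 0.921 with thinned cells, 0.856 without mitochondrial and ribosomal protein genes, 0.766 without the polyadenylated-transcript list, 0.799 without HIST2H2AC, 0.918 as a mean over cells and 0.816 as a mean over S-phase groups. The count of members higher at D21 (6) was 3 with the 20% calling, 4 at 20 CPM, 11 at 1 CPM and 1 at 2-fold. The count of lower members (2) was 1 with thinned cells, at 20 CPM and at 2-fold, and 3 at 1 CPM. The shares of all genes at these settings are not given here. The S-phase gradient of the sum (3.89 at D21 and 4.89 at D0) was 2.82 and 3.42 with the 20% calling, 3.64 and 4.73 with the mitochondrial limit, 4.08 and 5.27 without the top 5%, 4.28 and 5.16 thinned, 3.70 and 4.79 without mitochondrial and ribosomal protein genes, 3.26 and 4.16 with the short S-phase list, 4.48 and 6.02 with all UMIs of a cell, and 3.00 and 3.08 without HIST1H4C. Of 110 single-gene ratios (22 members at 5 alternatives), 4 turned round, HIST1H2BJ to 0.992 with the 20% calling and HIST1H2AG to 1.01 without the top 5%, 1.10 thinned and 1.02 without mitochondrial and ribosomal protein genes. The 110 do not include the groups with the same UMI limits. In the lower of those groups HIST1H4C (1.54 and 1.13), HIST1H3B and HIST1H2AM turned round as well. Measured members for which no values in those groups are given above were not compared in them. The causes were not tested. No paired analysis was possible because each condition has 1 library.

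Members at 0 are limited by depth at 0.0164 CPM and by priming on poly(A). The members' copies with near-identical sequence cannot be told apart here, and 1 line with 1 library per condition gives no measure of variation between cultures.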

Other observations

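The line holds cells in 2 expression states, which shade into each other and were told apart here by whether a cell had more UMIs of AGR2, SPANXB1, CST1, AFF3 and SOX4 or of CEMIP, SAA1, SAA2, NNMT and FLG. The first made up 40.3% of D21 cells and 64.8% of D0 cells, the second 50.6% and 23.9%, and cells with equal counts 9.15% and 11.3%. HIST1H2AC was higher in the second state, at 76.7 CPM at D21 and 51.0 CPM at D0, than in the first, at 51.5 and 36.7 CPM, and stood at 78.9 and 51.9 CPM in the cells with equal counts. HIST2H2AC was the other way round, at 134 CPM at D21 and 60.1 CPM at D0 in the AGR2 state, and 103 and 52.1 CPM in the CEMIP state. Within the AGR2 and CEMIP states, the D21 to D0 ratio was 2.23 and 1.98 for HIST2H2AC, and 0.567 and 0.640 for HIST1H4C. The sum of the clustered histones was 1428 CPM at D21 and 1801 CPM at D0 in the AGR2 state, 1569 and 1792 CPM in the CEMIP state, and 1751 and 2077 CPM in the cells with equal counts. Median UMIs per cell were 10571 at D21 and 17238 at D0 in the AGR2 state, and 13303 and 23276 in the CEMIP state.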
